A study of Fundulus heteroclitus with 53 samples.

Results

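The core circadian clock genes of Atlantic killifish (*Fundulus heteroclitus*) liver were taken here as the genes whose symbol in the count tables named a period, clock or cryptochrome gene (*per1* to *per3*, *clock*, and *cry1*, *cry2*, *cry3* or *cry5*, with or without a letter for the copy). This rule used names only and no measured value. It matched 8 of the 34089 genes counted: *clocka*, *clockb*, *per1b*, *per2*, *per3*, *cry1b*, *cry2* and *cry5*. All 8 passed the filter on low counts, which left 13609 genes in the tests. Copies listed only under a locus number were not matched, and how reads shared between copies of a gene were counted is not stated, so the division of reads between copies such as *clocka* and *clockb* is uncertain.

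In the vertebrate clock, CLOCK and its partner BMAL bind DNA together and switch on the period and cryptochrome genes, whose protein products then enter the nucleus and repress CLOCK and BMAL, closing a loop that runs for about a day. A second loop runs through the nuclear receptors of the REV-ERB and ROR families, which repress or activate the BMAL genes, and outputs are passed on by the PAR bZIP factors and their antagonist NFIL3. Many fish tissues, the liver among them, hold clocks of their own, and in zebrafish *per2* is known as a gene induced by light and *cry5* as a photolyase that repairs ultraviolet damage to DNA. Levels of such genes depend on the hour at which a tissue is taken, which is not given in the sources used here.

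The fish were juveniles of 6 months, bred by in vitro fertilization from a few wild parents of New Bedford Harbor (NBH), a polluted site whose fish are resistant to toxicants, or of Scorton Creek (SC), a reference site whose fish are sensitive to them, so each population stands for few families. RNA from the liver of 1 fish per library was sequenced in 6 groups of 5 fish: NBH control, NBH mild hypoxia, NBH severe hypoxia, SC control, SC mild hypoxia and SC severe hypoxia. Mild hypoxia was 10% oxygen and severe hypoxia 5% oxygen, both for 6 h in closed chambers, and the controls stood on the bench in room air, so that low oxygen and the chamber cannot be told apart. The chambers were fed with gas of 1 oxygen level, and how the fish were divided among them is not stated. Fish of a level may have shared a chamber, so chamber and oxygen cannot be told apart between mild and severe hypoxia either. The hour of dissection and the light during exposure are not given by group. Their part in differences between groups, those between hypoxia levels included, cannot be told apart from that of oxygen. No introduced allele is stated for these fish, and no agent besides a lethal dose of anesthetic before the livers were taken.

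Levels are given as CPM, the count of a gene per 1000000 counts of the library, scaled by the library's total and TMM factor, for fish 1 to 5 of each group in that order, and can be compared between groups but not between genes, since lengths were not used. Library totals ran between 4955114 and 23849931 counts with a median of 14872498.5, and the smallest belonged to NBH severe hypoxia fish 5. Of 20 hepatocyte markers 18 were detected at 1 CPM or more, and the median of their summed level was lower in each hypoxia group than in its controls, with ranges of 164562 to 191919 CPM in NBH control, 137213 to 167313 CPM in NBH mild and 121240 to 159626 CPM in NBH severe hypoxia fish. It ranged over 144203 to 198991 CPM in SC control, 105239 to 138073 CPM in SC mild and 106868 to 120511 CPM in SC severe hypoxia fish, and only the NBH mild hypoxia fish overlapped their controls. The largest parts of this sum were *apoa2* and *tfa*, with means of 59624 and 39957 CPM. Of 18 hepatocyte markers tested, 4 were upregulated and 2 downregulated in NBH mild, and 2 and 3 in NBH severe hypoxia fish. In SC fish 3 were upregulated and 1 downregulated in mild, and 5 and 2 in severe hypoxia. Their median log2 fold changes were 0.23, -0.04, 0.21 and 0.15 in the same order, so these markers did not fall in general. Markers of some other cells were lower in SC severe hypoxia fish than in SC controls: 8 of 10 erythrocyte, 7 of 9 leukocyte and 6 of 6 skeletal muscle markers tested were downregulated and 1 erythrocyte marker was upregulated. In the same comparison 0 of 6 exocrine pancreas and 0 of 4 intestine markers tested were called. In mild hypoxia 1 intestine marker was downregulated in each population. The summed erythrocyte level was between 17.04 and 29.7 CPM in SC severe hypoxia fish and between 48.3 and 95.1 CPM in SC control fish. The summed leukocyte level was between 5.32 and 22.7 CPM in SC severe hypoxia fish and between 25.5 and 37.6 CPM in SC control fish. The summed muscle level was between 0.167 and 6.17 CPM in SC severe hypoxia fish and between 17.2 and 99.9 CPM in SC control fish. In NBH severe hypoxia fish 3 of 10 erythrocyte, 1 of 9 leukocyte and 2 of 6 muscle markers were downregulated, and the summed erythrocyte level was between 16.3 and 33.4 CPM, against between 37.4 and 63.6 CPM in NBH controls. In mild hypoxia 2 erythrocyte, 1 leukocyte and 2 muscle markers were downregulated in NBH and 2, 2 and 1 in SC mild hypoxia fish, where the summed leukocyte level was between 9.33 and 20.6 CPM, below that of all SC controls. Beside these marker counts, 10.0% of all tested genes were downregulated in NBH fish at the mild level and 6.51% at the severe level. For SC fish the shares were 6.36% and 13.5%. Upregulated were 11% and 7.45% of all tested genes in NBH fish, and 7.25% and 15.2% in SC fish. Whether the marker counts stood apart from these shares was not tested, and 1 called marker in a list does not show a shift of its cells. The part of these cell types in the clock gene values was not tested. In whole tissue, fewer cells of a type and less RNA per cell cannot be told apart.

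Severe hypoxia was accompanied by higher levels of *per1b*, *per3* and *cry2* in fish of both populations, by higher *cry1b* in NBH fish and by lower *per2* in SC fish. For *cry1b* and *per2* the severe responses were not shown to differ between the populations. Mild hypoxia was accompanied by higher *clocka* in both populations and by higher *clockb* and *cry1b* in NBH fish. Some of these calls were lost when 1 fish was left out, as given below. A gene was called where its p from the quasi-likelihood test of edgeR, adjusted over all tested genes by the Benjamini-Hochberg method, was under 0.05. In NBH mild hypoxia fish 3 of 8 clock genes were upregulated and 0 downregulated relative to NBH controls, beside 11% and 10.0% of all tested genes. In NBH severe hypoxia fish 4 of 8 were upregulated and 0 downregulated, beside 7.45% and 6.51%. In SC mild hypoxia fish 1 of 8 was upregulated and 0 downregulated, beside 7.25% and 6.36%, a share near the background. In SC severe hypoxia fish 3 of 8 were upregulated and 1 downregulated, beside 15.2% and 13.5%. The counts at an unadjusted p under 0.05 were 4, 4, 1 and 4 in the same order, and DESeq2 called 3, 4, 1 and 4. Of all 13609 tested genes, 4776, 4042, 4004 and 5497 had an unadjusted p under 0.05. The SC mild count was below that share and the SC severe count near it. Without TMM factors 4 of 8 clock genes were upregulated in NBH mild, 4 in NBH severe, 1 in SC mild hypoxia fish and 4 in SC severe hypoxia fish, with 1 downregulated in the last. Beside these, 3507, 4216, 2560 and 4394 of all 13609 tested genes were upregulated, and 891 were downregulated in the last. The share of higher among the calls of all tested genes was then between 83.1% and 92.8%, against between 52.2% and 53.4% with TMM factors.

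The median log2 fold change of the 8 genes was 0.32 in NBH mild, 0.45 in NBH severe, 0.31 in SC mild and 0.52 in SC fish under severe hypoxia relative to controls, beside medians of all tested genes of 0.02, 0.04, 0.004 and 0.01. Mild and severe hypoxia fish of a population were set against the same 5 control fish, so these comparisons are not independent. Between the hypoxia levels 4 of 8 clock genes differed in NBH fish, beside 1.95% of all tested genes. In SC fish 6 of 8 differed, beside 2.90%. In NBH fish 2 were higher and 2 lower in severe than in mild hypoxia (3 and 1 without TMM factors), and in SC fish 4 were higher and 2 lower. No control mean enters these steps, but the control fish share in the estimate of the spread. With only the groups compared, fewer clock genes were called in each population. Of all tested genes, 11 were then called in NBH fish, against 265, and 253 in SC fish, against 395. The samples are separate fish bred from few parents, so that fish of a group share parents.

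**Figure D1:**
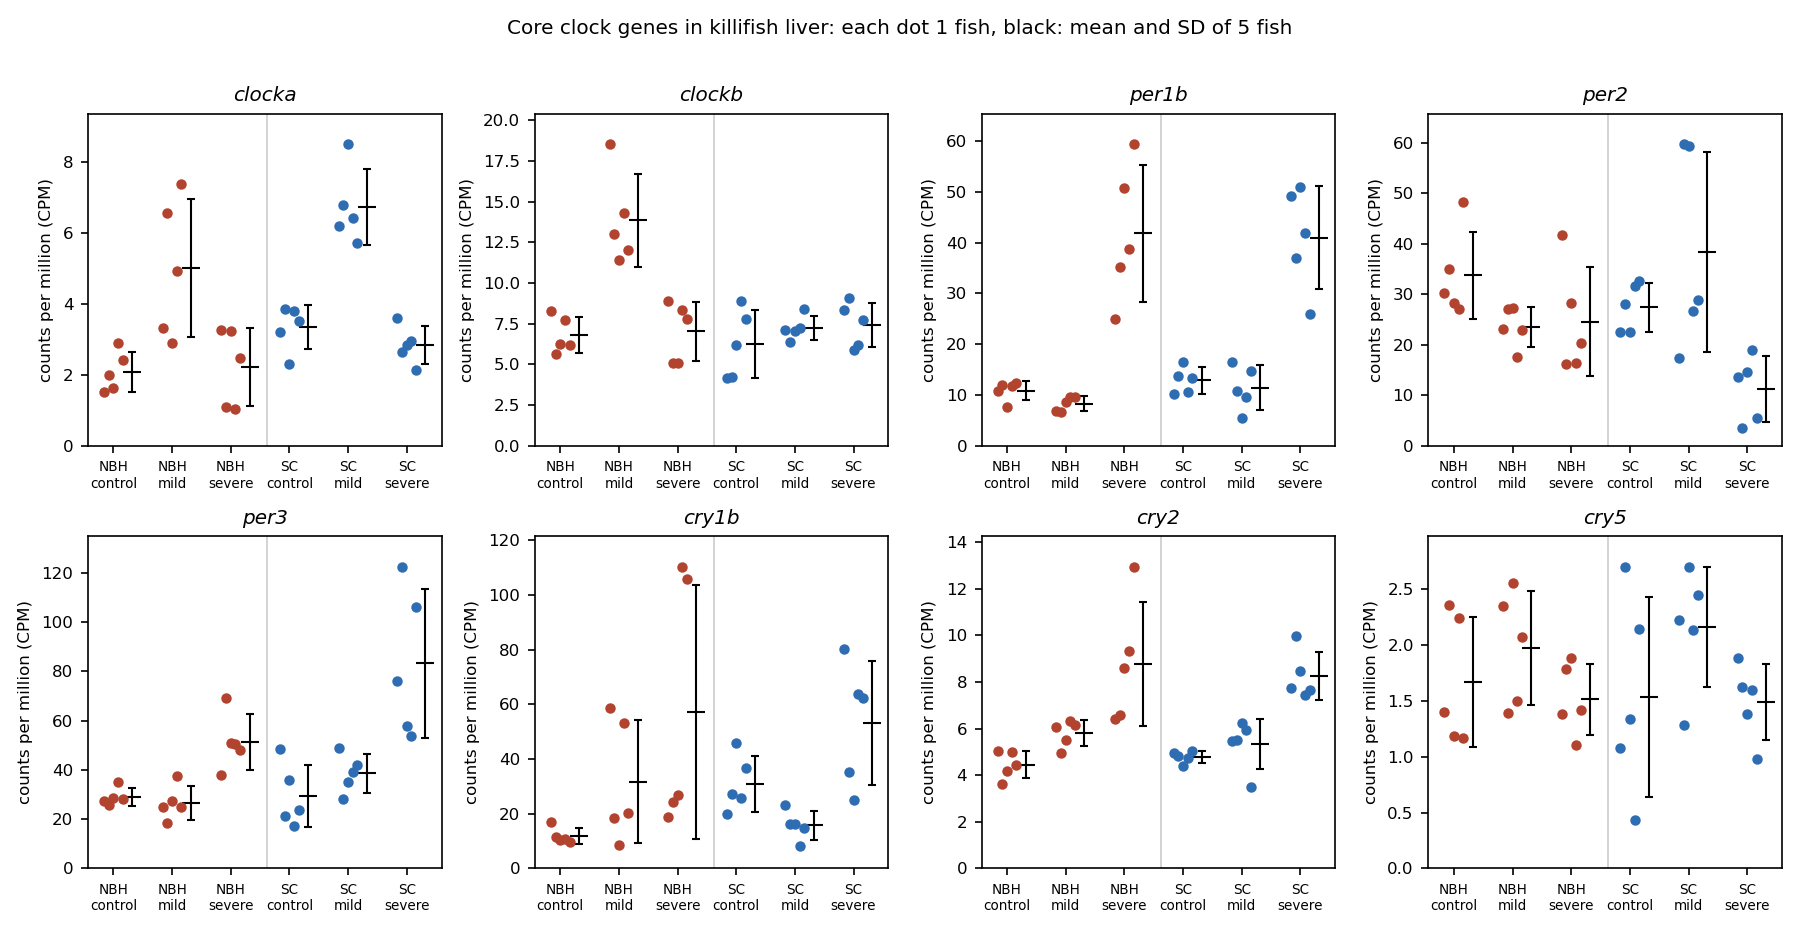
Level of each core clock gene in CPM (vertical axis, from 0, with its own scale in each panel) in every fish, by population and oxygen level, with the mean and SD of 5 fish in black. The *per1b* values of the severe hypoxia fish of both populations, between 25.05 and 59.4 CPM, lie above those of all other fish, and *clocka* peaks at mild hypoxia.

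The positive limb was represented by *clocka* (chr9:31132097-31168136 in assembly MU-UCD_Fhet_4.1) and *clockb* (chr5:10321097-10359033), both of which encode CLOCK, the DNA-binding partner of BMAL. *clocka* rose under mild hypoxia and was lower again under severe hypoxia. Its levels were 1.52, 1.99, 1.63, 2.89 and 2.42 CPM in NBH control fish, 3.33, 6.56, 2.91, 4.94 and 7.38 CPM in NBH mild hypoxia fish and 3.25, 1.08, 3.23, 1.05 and 2.48 CPM in NBH severe hypoxia fish. In SC fish they were 3.22, 3.86, 2.32, 3.79 and 3.52 CPM in controls, 6.22, 6.79, 8.52, 6.42 and 5.71 CPM in mild hypoxia and 3.60, 2.66, 2.86, 2.96 and 2.15 CPM in severe hypoxia. Every mild hypoxia fish was above every control fish of its population, and in SC fish also above every severe hypoxia fish. Group means were 2.09 ± 0.569, 5.02 ± 1.95 and 2.22 ± 1.096 CPM in NBH control, mild and severe hypoxia (SD, n = 5 each). They were 3.34 ± 0.625, 6.73 ± 1.07 and 2.84 ± 0.526 CPM in the same SC groups (SD, n = 5 each).

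Relative to controls, *clocka* was upregulated in mild hypoxia by 2.39 times in NBH fish, a log2 fold change of 1.26 (SE 0.30, edgeR adjusted p = 0.00469). In SC fish it was upregulated by 2.01 times, a log2 fold change of 1.01 (SE 0.29, edgeR adjusted p = 0.0202). The SC call was lost without SC mild hypoxia fish 3 or SC control fish 3 (adjusted p between 0.0573 and 0.0634). In severe hypoxia it did not pass the test, with log2 fold changes of 0.08 (95% interval -0.55 to 0.72) in NBH and -0.23 (-0.82 to 0.36) in SC fish. Severe relative to mild hypoxia gave a log2 fold change of -1.17 (SE 0.29, edgeR adjusted p = 0.0305) in NBH fish, where the groups overlapped, and a log2 fold change of -1.24 (SE 0.28, edgeR adjusted p = 0.0133) in SC fish. The NBH step was no longer called without NBH mild hypoxia fish 2, 4 or 5 or NBH severe hypoxia fish 2 or 4 (adjusted p between 0.0622 and 0.0905), nor under 4 other settings (adjusted p between 0.0552 and 0.274). The SC step was lost with the log2 library total as a covariate (adjusted p = 0.145). With counts between 11 and 113 per library, *clocka* was among the clock genes measured with few reads. Ordered by mean, no neighbouring groups differed by more than the larger of their SDs.

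The second copy, *clockb*, stood apart in NBH mild hypoxia fish. It had 8.29, 5.62, 6.23, 7.70 and 6.17 CPM in NBH control fish, 18.5, 13, 11.4, 14.3 and 12 CPM in NBH mild hypoxia fish and 8.88, 5.10, 5.11, 8.31 and 7.81 CPM in NBH severe hypoxia fish. In SC fish the values were 4.13, 4.25, 6.16, 8.88 and 7.81 CPM in controls, 7.09, 6.401, 7.03, 7.25 and 8.39 CPM in mild and 8.33, 9.05, 5.85, 6.21 and 7.71 CPM in severe hypoxia. All 5 NBH mild hypoxia fish stood above the other 25 fish, and the other 5 groups had means between 6.25 and 7.43 CPM, whose neighbours differed by less than their SD. In NBH fish *clockb* rose 2.03 times in mild hypoxia, a log2 fold change of 1.02 (SE 0.21, edgeR adjusted p = 0.00137). It was lower in severe than in mild hypoxia, a log2 fold change of -0.98 (SE 0.20, edgeR adjusted p = 0.0103), a step lost when only these groups were fitted (adjusted p = 0.109). In SC fish it did not pass in mild hypoxia, with a log2 fold change of 0.22 (95% interval -0.22 to 0.65, edgeR adjusted p = 0.513). The direct test of the difference between the responses gave 0.81 (SE 0.29, edgeR adjusted p = 0.433), so the responses of the populations were not shown to differ.

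Of the period genes, whose products join cryptochromes in the repressor complex, *per1b* and *per3* were highest in severe hypoxia in both populations, and *per2* was not. *per1b* (chr14:16325928-16346762) rose under severe hypoxia relative to both control and mild hypoxia, in both populations. NBH fish had 10.7, 11.97, 7.57, 11.7 and 12.4 CPM in control, 6.77, 6.67, 8.60, 9.63 and 9.66 CPM in mild hypoxia and 25.05, 35.2, 50.9, 38.8 and 59.4 CPM in severe hypoxia. SC fish had 10.2, 13.7, 16.5, 10.5 and 13.3 CPM in control, 16.6, 10.9, 5.41, 9.62 and 14.7 CPM in mild hypoxia and 49.2, 37.1, 50.9, 41.8 and 25.9 CPM in severe hypoxia. The lowest severe hypoxia fish of either population was above the highest of the 20 control and mild hypoxia fish.

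Means were 41.9 ± 13.5 CPM in NBH severe hypoxia and 10.9 ± 1.95 CPM in NBH control fish, a 3.83-fold difference with a log2 fold change of 1.94 (SE 0.25, edgeR adjusted p = 3.72e-05). They were 40.99 ± 10.1 CPM in SC severe hypoxia and 12.9 ± 2.58 CPM in SC control fish, a 3.19-fold difference with a log2 fold change of 1.67 (SE 0.25, edgeR adjusted p = 2.49e-05). Mild hypoxia fish were not separated from controls, at -0.40 (95% interval -0.91 to 0.12) in NBH and -0.16 (-0.67 to 0.35) in SC fish on the log2 scale. Between severe and mild hypoxia, *per1b* had the smallest p of all 13609 tested genes in NBH fish, a log2 fold change of 2.34 (SE 0.25, edgeR adjusted p = 6.64e-06). It ranked 8 in SC fish, a log2 fold change of 1.83 (SE 0.25, edgeR adjusted p = 8.76e-05). In all 4 of these comparisons the call held without any 1 fish and under every other setting tried. A difference between the populations was not detected in severe hypoxia, at 0.03 for NBH minus SC (95% interval -0.47 to 0.52, edgeR adjusted p = 0.963).

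*per3* (chr20:28244528-28269865), a period gene thought in mammals to tune the clock rather than to drive it, was also highest in severe hypoxia. NBH fish had 27.5, 25.6, 28.6, 35.1 and 27.98 CPM in control, 24.9, 18.4, 27.1, 37.4 and 25.04 CPM in mild hypoxia and 37.97, 69.3, 50.8, 50.4 and 47.9 CPM in severe hypoxia. SC fish had 48.4, 21.1, 36.1, 17.3 and 23.9 CPM in control, 48.96, 28.04, 34.9, 39.1 and 41.97 CPM in mild hypoxia and 75.96, 122.6, 57.9, 53.6 and 106 CPM in severe hypoxia. Severe hypoxia fish did not overlap with the control or mild hypoxia fish of their population. NBH fish showed a rise of 1.77 times over controls, a log2 fold change of 0.82 (SE 0.25, edgeR adjusted p = 0.0293), which was lost without NBH severe hypoxia fish 2 or 3 or NBH control fish 1, 2, 3 or 5 (adjusted p between 0.0512 and 0.0827). It was also lost with the covariate or with thinned counts (adjusted p between 0.0773 and 0.0787). Without TMM factors, which moved the median of all genes by 0.43, the log2 fold change was 1.25. SC fish showed a rise of 2.83 times, a log2 fold change of 1.50 (SE 0.26, edgeR adjusted p = 0.000118), which held without any 1 fish.

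Severe relative to mild hypoxia gave *per3* a log2 fold change of 0.95 (SE 0.25, edgeR adjusted p = 0.0454) in NBH fish and a log2 fold change of 1.11 (SE 0.25, edgeR adjusted p = 0.0124) in SC fish. The NBH step was lost without NBH mild hypoxia fish 1, 2 or 5 or NBH severe hypoxia fish 2, 3, 4 or 5 (adjusted p between 0.0585 and 0.118), the last of which is the smallest library, and under 4 further settings. The SC step was lost without SC mild hypoxia fish 2 or SC severe hypoxia fish 2 (adjusted p between 0.0513 and 0.0655), or with the covariate (adjusted p = 0.184). The difference of the severe responses, NBH minus SC, was -0.68 (95% interval -1.41 to 0.06, edgeR adjusted p = 0.502). In the order of means, SC severe hypoxia (83.3 ± 30.2 CPM) stood above NBH severe hypoxia (51.3 ± 11.3 CPM), and this above the rest, by more than the SD. The other 4 groups did not differ from their neighbours beyond it.

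*per2* (chr6:16349080-16382196) went the other way and fell in SC severe hypoxia fish. NBH fish had 30.3, 34.99, 28.2, 27.1 and 48.3 CPM in control, 23.1, 27.04, 27.3, 17.6 and 22.97 CPM in mild hypoxia and 41.7, 16.1, 28.4, 16.5 and 20.4 CPM in severe hypoxia. SC fish had 22.5, 28.2, 22.5, 31.6 and 32.6 CPM in control, 17.4, 59.8, 59.3, 26.6 and 28.8 CPM in mild hypoxia and 13.7, 3.51, 14.7, 18.9 and 5.51 CPM in severe hypoxia. Every SC severe hypoxia fish was below every SC control fish, while the NBH groups overlapped. The SC mild hypoxia fish were spread over a wide range with fish 2 and 3 far above the rest. The fall in SC severe hypoxia fish was to 11.3 ± 6.498 CPM, against 27.5 ± 4.85 CPM in SC controls, 2.44-fold lower with a log2 fold change of -1.29 (SE 0.36, edgeR adjusted p = 0.0091). It held without any 1 fish and under all other settings. SC severe hypoxia was also lower than SC mild hypoxia, a log2 fold change of -1.77 (SE 0.36, edgeR adjusted p = 0.00543), although the highest severe hypoxia fish exceeded the lowest mild hypoxia fish. That step was not called with the library total as a covariate or when only these groups were fitted (adjusted p = 0.0829 and 0.0771).

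In NBH severe hypoxia fish *per2* did not pass the test, at -0.46 relative to controls (95% interval -1.19 to 0.28, edgeR adjusted p = 0.409). The response in NBH minus that in SC was 0.83 (-0.21 to 1.87, edgeR adjusted p = 0.579), so this difference was not shown either. An unnamed locus overlaps *per2* in the annotation. It did not pass the filter on low counts, and since the strand setting of the counting is not stated, reads of the 2 loci cannot be told apart.

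Of the cryptochromes, the partners of the period proteins in repressing CLOCK and BMAL, *cry1b* varied widely between fish of a group, with a coefficient of variation (CV) between 24.4% and 81.5%, while that of *cry2* was between 5.48% and 30.3% and that of *cry5* between 21.1% and 58.2%. *cry1b*, on an unplaced scaffold of the assembly, had 17.04, 11.4, 10.5, 10.9 and 9.77 CPM in NBH control fish, 58.6, 18.4, 8.43, 53.01 and 20.4 CPM in NBH mild hypoxia fish and 18.8, 24.2, 26.8, 110 and 106 CPM in NBH severe hypoxia fish. SC fish had 19.8, 27.1, 45.7, 25.8 and 36.6 CPM in control, 23.3, 16.3, 16.2, 8.08 and 14.8 CPM in mild hypoxia and 80.4, 35.2, 24.97, 63.9 and 62.3 CPM in severe hypoxia. In both NBH hypoxia groups the fish fell into 2 high and 3 low values, with a CV of 70.8% in mild and 81.5% in severe hypoxia. The highest value was 6.96 times the lowest in NBH mild and 5.88 times in NBH severe hypoxia fish.

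NBH severe hypoxia fish were all above NBH controls, with means of 57.2 ± 46.6 CPM in severe hypoxia and 11.9 ± 2.92 CPM in controls and a log2 fold change of 2.25 (SE 0.50, edgeR adjusted p = 0.00369), a call that held without any 1 fish. Fish 5, one of the pair with high values, was also the smallest library, and without it the log2 fold change was 1.92 (edgeR adjusted p = 0.0101). In NBH mild hypoxia the groups overlapped, a log2 fold change of 1.41 (SE 0.49, edgeR adjusted p = 0.0384). The call was lost without NBH mild hypoxia fish 1 or 4 or NBH control fish 2, 3, 4 or 5 (adjusted p between 0.0682 and 0.13), and with the covariate, thinned counts or a replicate block. SC severe hypoxia fish did not pass against controls (0.78, 95% interval -0.19 to 1.76, edgeR adjusted p = 0.215) but were all above SC mild hypoxia fish, a log2 fold change of 1.76 (SE 0.48, edgeR adjusted p = 0.0436). That step was lost without SC mild hypoxia fish 1, 2, 3, 4 or 5 or SC severe hypoxia fish 1, 2, 4 or 5 (adjusted p between 0.052 and 0.132) and under the same 3 settings. In mild hypoxia the estimates had opposite signs, 1.41 in NBH and -0.97 in SC fish. The SC estimate did not pass (95% interval -1.96 to 0.02, edgeR adjusted p = 0.174). It was called lower when only SC mild hypoxia and SC control fish were fitted (edgeR adjusted p = 0.0309). The difference of the mild responses, NBH minus SC, was 2.38 (SE 0.68, edgeR adjusted p = 0.267). The severe responses differed by 1.47 (95% interval 0.08 to 2.86, edgeR adjusted p = 0.424). In severe hypoxia itself NBH minus SC was 0.10 (95% interval -0.87 to 1.06, edgeR adjusted p = 0.927). The SC means were 53.4 ± 22.7 CPM in severe hypoxia and 30.99 ± 10.2 CPM in controls.

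*cry2* (chr2:33621143-33647595) rose with severe hypoxia in both populations. NBH fish had 5.02, 3.63, 4.16, 4.97 and 4.45 CPM in control, 6.08, 4.93, 5.52, 6.34 and 6.14 CPM in mild hypoxia and 6.41, 6.57, 8.60, 9.32 and 12.9 CPM in severe hypoxia. SC fish had 4.96, 4.83, 4.37, 4.74 and 5.05 CPM in control, 5.45, 5.51, 6.22, 5.94 and 3.50 CPM in mild hypoxia and 7.74, 9.97, 8.48, 7.43 and 7.66 CPM in severe hypoxia. All severe hypoxia fish were above all control and mild hypoxia fish of their population. The rise over controls was 1.94 times in NBH fish, a log2 fold change of 0.96 (SE 0.17, edgeR adjusted p = 0.000766). It was 1.72 times in SC fish, a log2 fold change of 0.79 (SE 0.17, edgeR adjusted p = 0.00116), and both held without any 1 fish. The severe responses differed by 0.17 (95% interval -0.33 to 0.67) between NBH and SC. The step from mild hypoxia did not pass in NBH fish, a log2 fold change of 0.58 (SE 0.17, edgeR adjusted p = 0.0629), and passed in SC fish, a log2 fold change of 0.63 (SE 0.17, edgeR adjusted p = 0.0353). The NBH step was called without NBH severe hypoxia fish 1 or 2 (adjusted p between 0.028 and 0.04) and under 3 other settings (between 0.0343 and 0.0471). The SC step was lost without SC mild hypoxia fish 1, 2 or 5 or SC severe hypoxia fish 1, 2 or 3 (adjusted p between 0.0609 and 0.137) and under 4 other settings (adjusted p between 0.062 and 0.26).

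*cry5* (chr4:36227713-36231496), the photolyase of this family in zebrafish, was called in no comparison by edgeR or DESeq2. Its group means lay between 1.49 and 2.16 CPM, from 5 to 45 counts per library, and neighbouring means differed by less than the SD. The log2 fold change in severe hypoxia was -0.11 (95% interval -0.81 to 0.59) in NBH and -0.02 (-0.70 to 0.67) in SC fish. Changes within these intervals were not excluded.

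**Figure D2:**
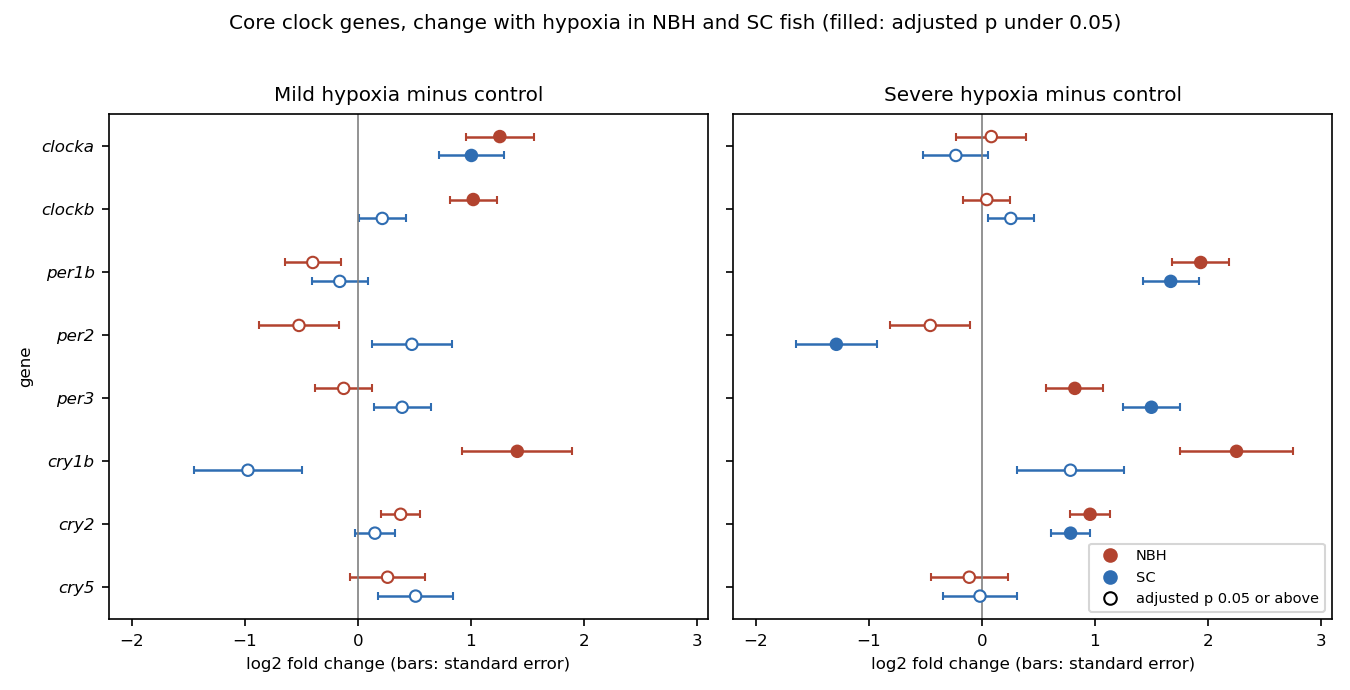
Log2 fold change of each core clock gene (horizontal axis, bars show the standard error) in mild and in severe hypoxia relative to control, for NBH and SC fish, from 5 fish per group. Filled symbols passed an adjusted p of 0.05, which *per1b* did in severe hypoxia at 1.94 in NBH and 1.67 in SC fish, and *clocka* in mild hypoxia at 1.26 and 1.01.

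Between populations 1 clock gene was called at 1 oxygen level. In control fish 0 of 8 clock genes differed between NBH and SC (edgeR), beside 1.62% of all tested genes, with 2 at an unadjusted p under 0.05 (beside 1912 of all 13609 tested genes) and 0 by DESeq2. The pair with an unadjusted p under 0.05 was *clocka* and *cry1b*. All NBH control fish were below all SC control fish in *cry1b*, with means of 11.9 ± 2.92 CPM in NBH and 30.99 ± 10.2 CPM in SC controls, a log2 fold change of -1.37 (SE 0.49, edgeR adjusted p = 0.158). It was called when only these groups were fitted (adjusted p = 0.0124). In mild hypoxia 1 of 8 differed, beside 1.25%, which was *clockb* at 13.8 ± 2.84 CPM in NBH and 7.23 ± 0.725 CPM in SC fish, a log2 fold change of 0.94 (SE 0.21, edgeR adjusted p = 0.0172). Without NBH mild hypoxia fish 1 or SC mild hypoxia fish 2 this call was lost (adjusted p between 0.0521 and 0.056), as it was without TMM factors or with the library total as a covariate.

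In severe hypoxia 0 of 8 differed by edgeR, beside 7.32%, with 2 at an unadjusted p under 0.05 (beside 3316 of all 13609 tested genes) and 1 by DESeq2. The gene on the border was *per2*, with 24.6 ± 10.7 CPM in NBH and 11.3 ± 6.498 CPM in SC severe hypoxia fish and a log2 fold change of 1.13 (SE 0.36, edgeR adjusted p = 0.0507). It passed without NBH severe hypoxia fish 2 or 4 or SC severe hypoxia fish 4 (adjusted p between 0.0241 and 0.0469). The other was *per3*, a log2 fold change of -0.70 (SE 0.25, edgeR adjusted p = 0.0811). Tests of whether the response to hypoxia differed between populations called 0 of 8 clock genes in mild hypoxia, beside 0% of all genes, and 0 of 8 in severe hypoxia, beside 0.00735%. At an unadjusted p under 0.05 there were 2 in mild hypoxia, *clockb* and *cry1b*, and 1 in severe hypoxia, *cry1b*, and DESeq2 called 0 in both. Of all 13609 tested genes, 1046 in mild and 1491 in severe hypoxia had an unadjusted p under 0.05.

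The rest of the clock network was read from 4 lists of activators, nuclear receptors, PAR bZIP and *nfil3* genes, and repressors and modifiers. Of 36 genes found, 31 passed the filter, and *arntl1a* and *npas2*, which encode a BMAL and a relative of CLOCK, were among the 5 that did not. In mild hypoxia 3 of 31 rose and 3 fell in NBH fish, with a median log2 fold change of -0.02, beside 11% and 10.0% of all tested genes, and so at the background. In SC fish 2 rose and 4 fell, with a median of -0.11, beside 7.25% and 6.36%. In severe hypoxia 9 rose and 2 fell in NBH fish, with a median of 0.57, beside 7.45% and 6.51% of all tested genes, the falls again at the background. In SC fish 12 rose and 1 fell, with a median of 0.46, beside 15.2% and 13.5%. Without TMM factors 7 rose and 3 fell in NBH mild, 2 rose and 1 fell in SC mild, 20 rose and 1 fell in NBH severe, and 18 rose and 0 fell in SC severe hypoxia fish. Of all 13609 tested genes, 3507 then rose and 634 fell in NBH mild, and 2560 and 484 in SC mild hypoxia. In severe hypoxia 4216 rose and 328 fell in NBH, and 4394 and 891 in SC fish. The rises of listed genes in mild hypoxia were below that background. Repressors and modifiers, 13 of the 31 genes tested, held 5 of the 9 NBH and 6 of the 12 SC genes that rose in severe hypoxia. Nuclear receptors, 8 of the 31, held 2 in each. Whether the rises gathered in any list was not tested. The 1 activator tested, *arntl2*, rose in NBH mild hypoxia, a log2 fold change of 0.92 (SE 0.29, edgeR adjusted p = 0.0233), a call lost without NBH mild hypoxia fish 1 or NBH control fish 1 or 3 (adjusted p between 0.0545 and 0.0929).

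Among the called genes of the list of repressors and modifiers, *bhlhe40* had the largest fold change in severe hypoxia in both populations. *bhlhe40* and *bhlhe41* encode DEC proteins that compete with CLOCK and BMAL for DNA and are known in mammals as targets of hypoxia-inducible factor. *bhlhe40* rose to 11.4 ± 6.59 CPM in NBH severe hypoxia fish, against 2.90 ± 0.983 CPM in NBH controls, a log2 fold change of 1.96 (SE 0.39, edgeR adjusted p = 0.00151). It rose to 41.8 ± 22.4 CPM in SC severe hypoxia fish, against 5.62 ± 1.22 CPM in SC controls, a log2 fold change of 2.89 (SE 0.37, edgeR adjusted p = 5.94e-06). The severe hypoxia fish lay between 3.94 and 20.9 CPM in NBH and between 17.6 and 71.2 CPM in SC, above all controls, which lay between 1.45 and 3.73 CPM in NBH and between 4.37 and 7.44 CPM in SC. *bhlhe41* did not pass in NBH severe hypoxia fish, at 0.34 (edgeR adjusted p = 0.658), and rose in SC severe hypoxia fish, a log2 fold change of 2.58 (SE 0.47, edgeR adjusted p = 0.000267). Both were lower in NBH than in SC severe hypoxia fish, a log2 fold change of -1.88 (SE 0.36, edgeR adjusted p = 0.00257) and a log2 fold change of -1.73 (SE 0.45, edgeR adjusted p = 0.0189). The second of these was lost without SC severe hypoxia fish 2 (adjusted p = 0.0695). For *bhlhe40* all NBH control fish also lay below all SC control fish. Tests of whether the response to hypoxia differed between populations called 0 of the 31 listed genes in mild and 0 in severe hypoxia. They called 0% and 0.00735% of all tested genes. The severe responses of *bhlhe40* and *bhlhe41* were thus not shown to differ between the populations.

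*nr1d1*, which encodes the repressor REV-ERB alpha, rose to 9.59 ± 3.54 CPM in NBH severe hypoxia fish, against 2.36 ± 0.894 CPM in NBH controls, a log2 fold change of 2.02 (SE 0.37, edgeR adjusted p = 0.000773). It rose to 9.39 ± 2.81 CPM in SC severe hypoxia fish, against 2.83 ± 0.984 CPM in SC controls, a log2 fold change of 1.74 (SE 0.35, edgeR adjusted p = 0.000719). Another REV-ERB gene of fish, *nr1d4a*, fell in NBH mild hypoxia, a log2 fold change of -1.88 (SE 0.53, edgeR adjusted p = 0.0139), and rose in NBH severe hypoxia, a log2 fold change of 1.59 (SE 0.49, edgeR adjusted p = 0.0295). The NBH rise was lost without NBH severe hypoxia fish 1 or 3 or NBH control fish 1, 2 or 3 (adjusted p between 0.0508 and 0.0761). In SC severe hypoxia it also rose, a log2 fold change of 1.34 (SE 0.50, edgeR adjusted p = 0.0434), a call lost without SC severe hypoxia fish 1, 3 or 4 or SC control fish 1, 4 or 5 (adjusted p between 0.0675 and 0.106). *usp2a*, a ubiquitin protease that acts on clock proteins in mammals, rose in NBH fish at both levels, a log2 fold change of 1.21 (SE 0.33, edgeR adjusted p = 0.00963) in mild and a log2 fold change of 1.41 (SE 0.33, edgeR adjusted p = 0.00525) in severe hypoxia. It rose in SC severe hypoxia too, a log2 fold change of 1.01 (SE 0.30, edgeR adjusted p = 0.0136), a call lost with the covariate (adjusted p = 0.0982).

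*cipca* and *cipcb* encode partners of CLOCK that inhibit it. *cipca* rose in SC severe hypoxia fish, a log2 fold change of 2.77 (SE 0.75, edgeR adjusted p = 0.00709), from at most 26 counts in a library, and the call was lost with the covariate (adjusted p = 0.131). *cipcb* gave a log2 fold change of 1.72 (SE 0.56, edgeR adjusted p = 0.0406) in NBH severe hypoxia and a log2 fold change of 1.75 (SE 0.55, edgeR adjusted p = 0.0192) in SC severe hypoxia. Its NBH call was lost without NBH severe hypoxia fish 1, 3 or 4 or NBH control fish 1, 2, 3, 4 or 5 (adjusted p between 0.0561 and 0.0994). The SC call was lost without SC severe hypoxia fish 4 or SC control fish 3 (adjusted p between 0.0501 and 0.0862). Of 9 PAR bZIP and *nfil3* genes tested, 2 rose and 2 fell in NBH severe hypoxia fish, and 4 rose and 1 fell in SC severe hypoxia fish, beside the shares of all tested genes given above. *nfil3-6* rose most of them in SC severe hypoxia fish, a log2 fold change of 1.79 (SE 0.34, edgeR adjusted p = 0.000422). Other *nfil3* genes fell. *nfil3-2* had 2.91 ± 2.21 CPM in NBH severe hypoxia fish, against 7.93 ± 3.03 CPM in NBH controls. It had 2.72 ± 0.513 CPM in SC severe hypoxia fish, against 5.77 ± 0.961 CPM in SC controls. *nfil3-5* fell in NBH severe hypoxia fish, to 6.84 ± 3.25 CPM against 17.2 ± 2.89 CPM in controls. Each of these 3 calls was lost under some alternatives.

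In NBH mild hypoxia *bhlhe41* fell, a log2 fold change of -1.74 (SE 0.48, edgeR adjusted p = 0.0123), and *tefb*, a PAR bZIP factor, fell as well, a log2 fold change of -1.38 (SE 0.35, edgeR adjusted p = 0.00639). In the same fish *fbxl3a*, which encodes a subunit of the ligase that degrades cryptochromes, rose, a log2 fold change of 1.17 (SE 0.33, edgeR adjusted p = 0.0125). With the covariate these calls and that of *usp2a* in NBH mild hypoxia were lost (adjusted p between 0.0704 and 0.0923). In SC mild hypoxia *csnk1da*, a casein kinase that phosphorylates period proteins, fell with a log2 fold change of -0.86 (SE 0.22, edgeR adjusted p = 0.0105), a call lost without TMM factors (adjusted p = 0.0828). *roraa*, a ROR receptor, fell with a log2 fold change of -0.98 (SE 0.28, edgeR adjusted p = 0.0212). *bhlhe40* also fell, a log2 fold change of -1.26 (SE 0.39, edgeR adjusted p = 0.0317). The *roraa* call was lost without SC mild hypoxia fish 4 or SC control fish 1 (adjusted p between 0.056 and 0.071). The *bhlhe40* call was lost without SC mild hypoxia fish 1, 2, 4 or 5 or SC control fish 1, 2 or 5 (adjusted p between 0.054 and 0.08).

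Further SC mild hypoxia calls rested on few fish. *nocta*, a nocturnin gene, gave a log2 fold change of -1.74 (SE 0.53, edgeR adjusted p = 0.0263) and was lost without SC mild hypoxia fish 1, 2 or 4 or SC control fish 1 (adjusted p between 0.0518 and 0.533). Its SC control values ran between 6.47 and 70.3 CPM, and with the highest fish, SC control fish 1, left out the log2 fold change was -0.38. *cpdp* encodes a DNA photolyase and is not itself a clock repressor. It gave a log2 fold change of 1.29 (SE 0.42, edgeR adjusted p = 0.0367) and was lost without SC mild hypoxia fish 3 or 5 or SC control fish 1, 2, 3 or 5 (adjusted p between 0.0502 and 0.128).

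Between populations 0 of the 31 listed genes differed in controls (edgeR), beside 1.62% of all tested genes, with 4 at an unadjusted p under 0.05 (beside 1912 of all 13609 tested genes) and 1 by DESeq2. In mild hypoxia 1 and in severe hypoxia 4 differed, beside 1.25% and 7.32% of all tested genes, all lower in NBH fish, and the 4 were lost when only these groups were fitted. The mild hypoxia gene was the PAR bZIP factor *tefa*, with 29 ± 4.83 CPM in NBH and 59.8 ± 14.98 CPM in SC fish, a log2 fold change of -1.04 (SE 0.17, edgeR adjusted p = 0.000669). In severe hypoxia *nfil3-5* had 6.84 ± 3.25 CPM in NBH and 21.4 ± 13.7 CPM in SC fish, a log2 fold change of -1.67 (SE 0.37, edgeR adjusted p = 0.00752). *fbxl3a* had 3.02 ± 0.181 CPM in NBH and 6.57 ± 3.30 CPM in SC fish, a log2 fold change of -1.12 (SE 0.30, edgeR adjusted p = 0.0209), a call lost without SC severe hypoxia fish 1 or 2 (adjusted p between 0.0518 and 0.104).

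**Figure D3:**
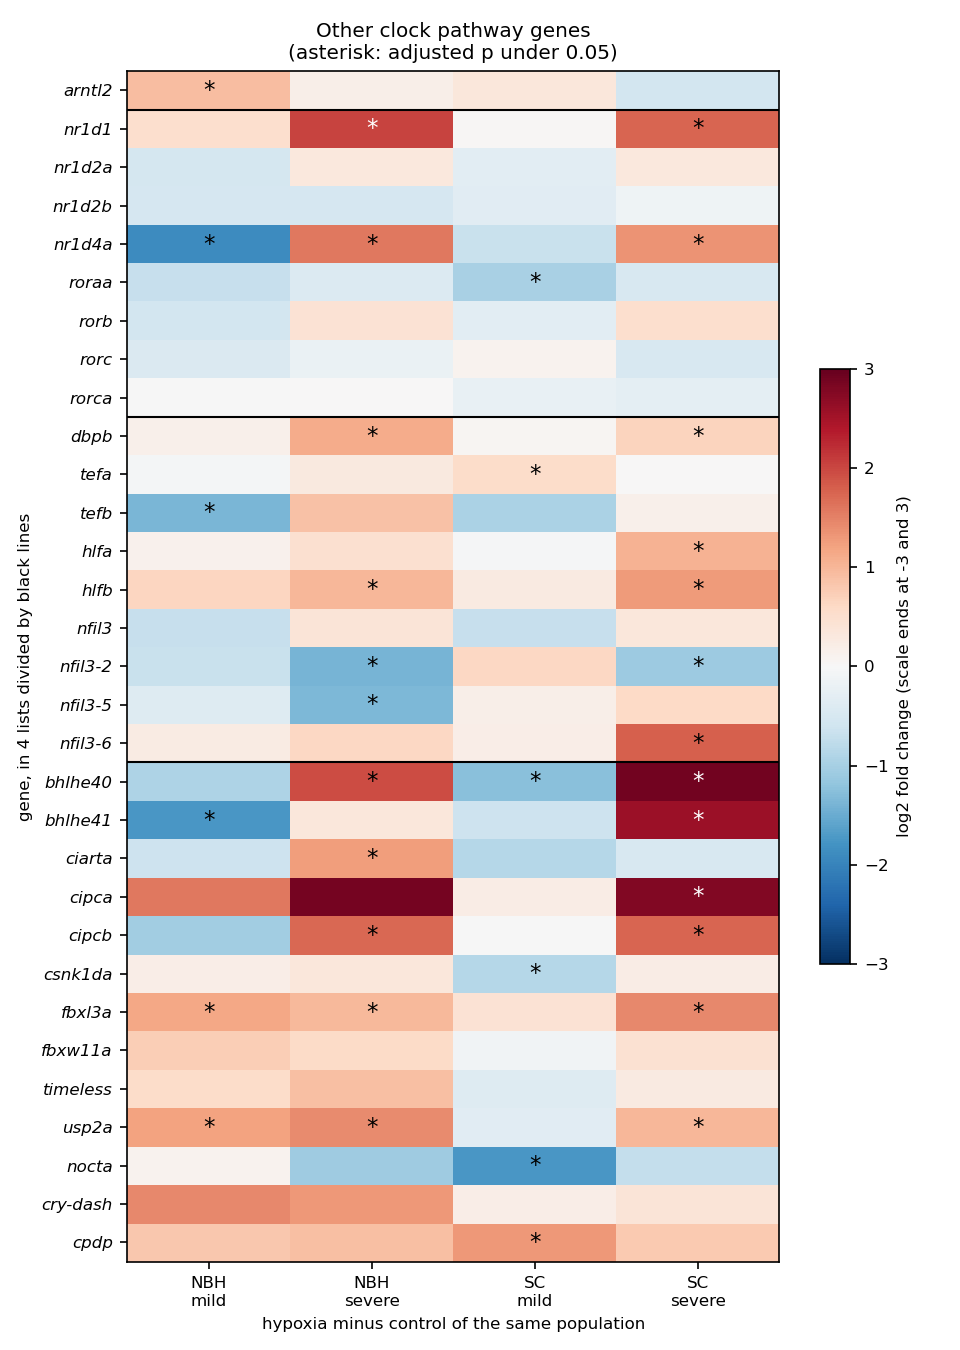
Log2 fold change of the 31 other clock pathway genes that were tested (rows, in the order activators, nuclear receptors, PAR bZIP and *nfil3* genes, repressors and modifiers) in mild and severe hypoxia relative to control (columns), with asterisks at an adjusted p under 0.05. The severe hypoxia columns hold 9 red cells with asterisks in NBH and 12 in SC fish, of 31 each, beside 7.45% and 15.2% of all tested genes called higher.

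Fish of one group also differed from each other in these genes, and the deviations from the group means were compared over all 30 fish. *per2* and *per3* deviated in opposite directions, with r = -0.75 (Pearson) and rho = -0.78 (Spearman) on the log2 CPM scale. In 23 of 30 fish one of the genes was above and the other below its group mean. The correlation was -0.67 in the 15 NBH fish, -0.78 in the 15 SC fish, -0.62 in the 10 controls and -0.86 in the 20 hypoxia fish. It was -0.69 without the pair of fish whose *per2* lay farthest out (SC severe hypoxia fish 2 and 4). Among the 28 pairs of clock genes it was the 1 pair above 0.5 in absolute value, the next being *clocka* with *per2* at 0.44. The values of a fish share a library and its scaling, and correlations of the same deviations with the log2 library total were -0.14 for *per2* and 0.22 for *per3*.

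**Figure D4:**
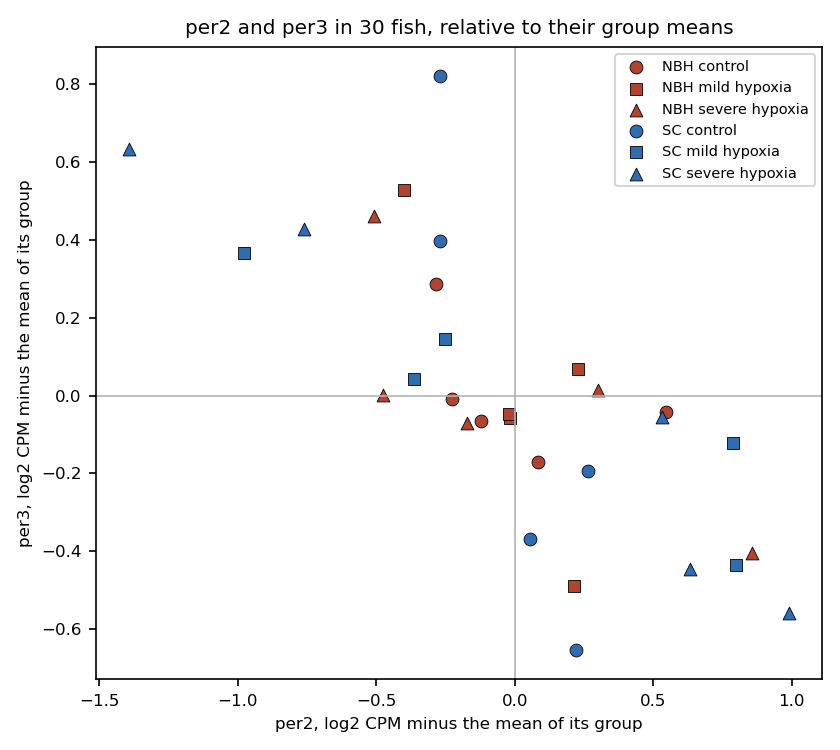
Deviation of each fish from the mean of its group in *per2* (horizontal axis) and *per3* (vertical axis), both in log2 CPM, for 30 fish in 6 groups. Most points, 23 of 30, fall at the upper left or lower right of the origin.

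For each clock gene the genes with the most alike deviations were sought among 8071 named genes with at least 1 CPM, over the same 30 fish. *cry1b* had the closest companions, *tbc1d22b* (Pearson 0.84) and *fkbp5* (0.82), the second of which encodes a chaperone partner of steroid receptors. *per2* came next with *cdc42ep4a* (0.78) and *camk2d1* (0.70), then *clocka* with *mospd2* (0.76) and *tent2* (0.73). *per3* had *tat* (0.71), the liver enzyme tyrosine aminotransferase, and *otud5a* (0.71), and *cry2* had *prag1* (0.72) and *pwwp2b* (0.68). The others were *cry5* with *si:ch211-236d3.4* (0.70) and *mdm4* (0.69), *per1b* with *cep78* (0.68) and *si:ch211-129c21.1* (0.63), and *clockb* with *net1* (0.63) and *dot1l* (0.62). These are the highest of 8071 values per gene and carry no test, and the median absolute correlation of the clock genes with a spread of tested genes was 0.16. With the listed clock pathway genes, the strongest were *cry1b* with *hlfa* (0.65) and *per2* with *fbxl3a* (-0.64), while *per3* with *fbxl3a* was 0.62.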

How the data were processed

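RNA from the liver of single fish was sequenced by the authors as stranded single-end reads, which they trimmed with Trimmomatic, aligned with STAR to the killifish assembly MU-UCD_Fhet_4.1 and counted with HTSeq-count; the deposited values are raw read counts per gene, and the strand setting of the counting is not given in the sources used here. The 30 libraries were put in 6 groups of 5 from the labels. Counts were analysed with edgeR 4.0.16 in R 4.3.3, with TMM factors, the default expression filter (minimum count 10) with the groups given, the quasi-likelihood test in its legacy form, 1 mean per group, 11 comparisons, and Benjamini-Hochberg adjustment over the 13609 genes kept at a threshold of 0.05. SE is the log2 fold change over the root of F. Deviations used log2 CPM with a prior count of 2.

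The members, gene lists and tests were chosen with earlier results of these data known. Named were all members, the 5 called listed genes with the largest fold change per comparison with control, all listed genes called between populations, and the 2 genes most alike in deviation per member. Some other called listed genes were named beside them. The study left out 1 NBH severe hypoxia fish as an outlier without giving its number. All 30 were used here, so the NBH severe hypoxia values include that fish. A fit of 29, without NBH severe hypoxia fish 5, was an alternative, and whether fish 5 was the one left out is not known. Alternatives were DESeq2 1.42.0, no TMM factors, another quasi-likelihood form, 2 other filters, only the groups compared, a replicate block, the log2 library total as a covariate, thinned counts, and each fish left out. Replicate numbers did not pair the fish, with mean correlations of same-numbered deviations between -0.03 and 0.004. In counts simulated for NBH severe hypoxia and control fish, 123 of 200 genes changed by 1 on the log2 scale were recovered with 2 false calls, over 13133 genes. At a change of 2, 193 of 200 were recovered with 10 false calls, over 13136 genes. The changed genes had a mean of at least 5 CPM, so these figures do not cover lower genes such as *cry5* and *clocka*. Far fewer genes were changed than the 1900 called in the data, and the adjustment depends on that share. The figures are therefore not the recovery rate of the real test. Methylation data of 23 samples, and promoter motifs, were not analysed here. Gene positions are from the RefSeq annotation of the same assembly.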

Additional observations from a re-analysis of the deposited data

Results flagged for a closer look

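Each clock gene was tested in each group for a fish that stood apart from the other 4 of its group. Of 48 combinations of gene and group, 2 passed Dixon's critical value, and chance alone flags about 1 in 20 groups. For *cry1b*, NBH control fish 1 had 17.04 CPM, and the next highest NBH control fish had 11.4 CPM. For *cry2*, SC mild hypoxia fish 5 had 3.50 CPM, and the next lowest SC mild hypoxia fish had 5.45 CPM. The call of *cry2* in SC severe relative to mild hypoxia was lost without this SC mild hypoxia fish, as it was without some others.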

How the results depend on the processing

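No clock gene or listed gene that was called changed direction under any alternative, and 11 of the 23 calls of core clock genes held both without any 1 fish and under all 10 other settings, 14 and 12 on their own. Of the 61 calls of listed genes 36 held without any 1 fish, 24 under the other settings and 22 under both. The counts of core clock genes called were changed as follows, with the reported count after the word against. For NBH mild relative to control the range without 1 fish was 2 to 3, for NBH severe 3 to 4, for SC mild 0 to 1 and for SC severe 4 in every case. SC mild relative to control gave 2 with only the groups compared, against 1. NBH severe relative to mild gave 1 with only the groups compared, 2 with the replicate block and 2 with thinned counts, against 4, and 2 to 5 without 1 fish. SC severe relative to mild gave 2 with the covariate, against 6, and 3 to 5 without 1 fish. Between populations, controls gave 1 with only the groups compared, against 0, mild hypoxia gave 0 without TMM factors or with the covariate, against 1, and 0 to 1 without 1 fish, and severe hypoxia gave 1 by DESeq2, by the newer quasi-likelihood form and by the filter without groups, against 0, and 0 to 1 without 1 fish.

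For the listed genes, NBH mild relative to control gave 10 without TMM factors and 1 with the covariate, against 6, NBH severe gave 21 without TMM factors, against 11, and 7 to 11 without 1 fish, and SC mild gave 3 without TMM factors and 3 with the replicate block, against 6, and 2 to 7 without 1 fish. NBH severe relative to mild gave 2 with only the groups compared, against 10, and SC severe relative to mild gave 16 by DESeq2, against 10. Between populations, controls gave 1 in the fit of 29 fish, by DESeq2, without TMM factors, by the newer quasi-likelihood form and with thinned counts, against 0, and 0 to 1 without 1 fish. Mild hypoxia gave 2 with only the groups compared, against 1. Severe hypoxia gave 0 with only the groups compared, against 4, and 2 to 6 without 1 fish, and the severe response gave 1 by DESeq2, against 0. The replicate block changed the count of calls over 1.5 times in no other comparison, and since the numbers do not pair the fish, a call lost under it says nothing of its size. The counts over all tested genes moved by more than 1.5 times as follows. Those of NBH severe relative to control were 4544 without TMM factors and 993 with only the groups compared, against 1900, and of SC mild 3044 without TMM factors, against 1852. With the covariate NBH mild gave 1234, against 2860, and SC severe 2555, against 3909. NBH severe relative to mild ranged between 11 with only the groups compared and 645 by DESeq2, against 265, and SC severe relative to mild gave 213 with the covariate and 253 with only the groups compared, against 395. Between populations controls gave 440 by DESeq2 and 359 without TMM factors, against 221. Mild hypoxia gave 447 by DESeq2, 285 by the newer quasi-likelihood form, 269 with 29 fish, 108 by the filter without groups and 72 with the covariate, against 170, and severe hypoxia gave 197 with only the groups compared and 590 with thinned counts, against 996. The mild response ranged between 0 and 36 and the severe response between 0 and 69, with DESeq2 highest, against 0 and 1. Leaving out the TMM factors moved the median of all genes by 0.32 in NBH mild, 0.43 in NBH severe, 0.27 in SC mild and 0.37 in SC fish under severe hypoxia relative to controls. The causes of these changes were not tested. Settings that leave out fish or reads also hold fewer of them, and the part of this was not tested either. Among the core clock genes *cry5* and *clocka* had the fewest reads. Of the listed genes tested, *cipca*, *timeless*, *cpdp*, *cry-dash* and *cipcb* had the fewest, with at most 80 counts in a library. Whether few reads limited the calls of these genes was not tested. Library totals differed between groups, with medians between 7393074 counts in SC mild and 18906362 counts in SC severe hypoxia fish.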
